A study of Homo sapiens with 8 samples.

Results

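The ATF4 and amino acid response genes are 35 named genes: the transcription factor ATF4, genes it is known to control, and genes that move with it when amino acids run short. A member was read from probe sets that the platform annotation pairs with its symbol alone, and the rule uses no expression value. Of the 35 members, 34 had such a probe set, 67 probe sets in all, among 19775 genes named in the table. MARS1, the methionyl-tRNA synthetase, was paired only with probe sets that also list another gene and has no value here. Where a gene had several probe sets, the one with the highest mean stood for it, and the 13298 genes whose mean lay above 7.43 on the log2 scale, the median over all probe sets, were tested. Of the members, 32 passed this filter. ALDH1L2, with a mean of 6.56, and SLC6A9, with a mean of 7.39, did not.

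The study followed HepG2, an established human hepatocellular carcinoma line, in serum-free medium without (control) or with 3 µM quercetin, a plant flavonol. RNA was taken at 2, 4, 12 and 24 h, and 1 Affymetrix array was run for each treatment and time, 8 arrays in all. Every group had been starved of serum beforehand, which the labels give as overnight for the samples and as 24 h for the series, and no array of unstarved cells was used here. Each treatment and time is a single array, so the error of the main fits below comes from the scatter of the quercetin difference from time to time, which may be technical. This error was moderated towards a trend over all genes, so an SE is not the replicate error of a gene alone. A difference at a single time is 1 array against 1 array and was not tested. Values are log2 expression values made by RMA, a method that summarises the probes of a probe set, and they are relative within an array, so a change in RNA per cell and a change in the number of cells cannot be told apart.

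ATF4 is the main transcription factor of the integrated stress response. Kinases that sense empty tRNAs, unfolded protein, heme shortage or viral RNA phosphorylate the initiation factor eIF2, which slows translation in general and favours translation of the ATF4 message. The ATF4 protein, paired with C/EBP partners, then switches on genes for amino acid synthesis and uptake and for charging tRNAs, together with stress factors such as DDIT3 (CHOP) and TRIB3. The liver is a major site of amino acid handling, and liver cells use this pathway during shortage of single amino acids.

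The arrays carried the markers of liver cells: 9 of 10 hepatocyte or HepG2 markers had a probe set, with values from 11.2 (TTR) to 15.1 (SERPINA1), and HNF4A had none that names it alone. Markers of leukocytes, fibroblasts and endothelium lay at or below 9.91, except LYZ, which lay between 13.4 and 14.2. Technical signals differed between arrays. The mean of the 18 hybridisation spike-in probe sets was 11.2 to 11.3 on 3 arrays (control at 2 h and both at 12 h) and 11.8 to 12.1 on the other 5, and the mean of the 3 probe sets for 18S rRNA ranged from 7.29 to 12.01. The median of an array varied little (7.36 to 7.48), while the SD of its values ran from 1.74 to 1.95.

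Many ATF4 targets carry a composite element that ATF4 binds with a C/EBP partner, whose core is TGATGNAA (TTNCATCA on the other strand). The letters were searched on both strands in RefSeq promoter windows of GRCh38.p14, from 250 bases before to 50 bases after each annotated start. Windows were held for 30 members, and 11 of these genes (36.7%) carried the core, against 4.46% of all 27305 genes in the table; counted by window, 11 of 48 (22.9%) did, against 3.62% of all 35116 windows. Among transporters and among tRNA synthetases 4 of 7 genes carried it, among regulators and stress factors 2 of 9, and among synthesis enzymes 1 of 7. A match is a description of letters, not a bound site. Of the members called over times below, 3 of 9 with a window carried the core (33.3%), and of the tested members not called 7 of 19 did (36.8%).

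The upstream 250 bases of ASNS and GARS1 are printed because both genes were higher at 24 h and carry the core there, at bases -68 to -61 and -33 to -26 from the start; for SLC3A2, which was lower at 24 h than at 12 h, the site lies after the start, at bases 38 to 45. Capitals mark the core, and each sequence is given 5′ to 3′ in the direction of the gene. ASNS lies on the minus strand (chr7:97872409-97872658), GARS1 on the plus strand (chr7:30594628-30594877) and the SLC3A2 run on the plus strand (chr11:62881725-62881748).
ASNS: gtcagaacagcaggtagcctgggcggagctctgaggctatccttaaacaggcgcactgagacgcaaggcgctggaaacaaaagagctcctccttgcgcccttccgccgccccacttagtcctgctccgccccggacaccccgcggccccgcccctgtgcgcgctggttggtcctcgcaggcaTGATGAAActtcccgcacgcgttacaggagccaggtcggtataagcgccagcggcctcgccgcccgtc
GARS1: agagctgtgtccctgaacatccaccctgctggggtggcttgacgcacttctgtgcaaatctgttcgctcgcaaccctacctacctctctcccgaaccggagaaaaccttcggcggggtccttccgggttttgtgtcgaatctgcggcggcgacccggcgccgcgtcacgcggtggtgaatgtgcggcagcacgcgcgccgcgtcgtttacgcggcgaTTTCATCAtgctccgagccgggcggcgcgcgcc
SLC3A2: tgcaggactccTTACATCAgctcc

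The core also stood in 7 members that did not pass the test over times, shown with 11 flanking bases on each side so that their sites can be set beside those of ASNS and GARS1. They lie at chr15:40953251-40953280 and chr19:33374060-33374089 for the stress factors CHAC1 and CEBPG, at chr19:46784893-46784922, chr2:64989381-64989410 and chr13:29595663-29595692 for the transporters, and at chr16:70289675-70289704 and chr18:57621804-57621833 for the synthetases. Read on the strand that starts with TGATG, the core was TGATGAAA in ASNS, GARS1 and SLC7A1, TGATGTAA in SLC3A2, and TGATGCAA in the other 6 members printed here.
CHAC1: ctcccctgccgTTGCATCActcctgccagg
CEBPG: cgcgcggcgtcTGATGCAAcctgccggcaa
SLC1A5: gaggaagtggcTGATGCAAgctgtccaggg
SLC1A4: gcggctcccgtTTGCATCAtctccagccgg
SLC7A1: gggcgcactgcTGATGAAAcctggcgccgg
AARS1: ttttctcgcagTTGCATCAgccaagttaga
NARS1: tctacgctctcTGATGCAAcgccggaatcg

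Over the 4 times, 11 of the 32 tested members changed (limma F-test over times, adjusted p under 0.05 over all genes tested), 34.4% against 38.1% of all genes. They were ATF4, VLDLR and STC2 of 10 regulators and stress factors, ASNS, PSPH, SHMT2, MTHFD2 and ALDH18A1 of 10 synthesis enzymes, SLC3A2 and SLC38A2 of 6 transporters, and GARS1 of 6 tRNA synthetases. Between 24 and 2 h, 8 members were called higher, where 17.3% of all genes were, and 1 was called lower, where 3.98% were. From 12 to 24 h, 8 of the 32 members rose (19% of all genes) and 2 fell (4.78%), from 4 to 12 h 1 rose (6.56%) and 0 fell (0.97%), and from 2 to 4 h 0 rose (0.0376%) and 0 fell (0.496%). Members had a higher signal than most genes, so the counts were also set beside brighter genes. With the filter raised to the 75th percentile of all probe sets, 10 of 30 members changed over times, beside 4042 of 8095 genes. Under that filter 7 members were called higher between 24 and 2 h, beside 2074 genes. The part of the 18S signal in these results was not tested.

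These counts moved with the scaling, the arrays and the spike-in class. From 12 to 24 h, 4 members rose and 6 fell after cyclic loess, and 3 rose and 6 fell after quantile normalization, so the balance between higher and lower turned; PSPH and SLC3A2 fell under both, joined by TRIB3, PSAT1, SLC7A5 and WARS1. Over times the quantile count was again 11, but not of the same genes: ATF4, ASNS, SHMT2, ALDH18A1 and GARS1 were lost, and TRIB3, PSAT1, PYCR1, SLC7A5 and SLC1A5 entered. Without the control 24 h array 5 members were called over times, 4 were called higher between 24 and 2 h and 3 rose from 12 to 24 h. Without the quercetin 2 h array 3 were called higher between 24 and 2 h, and without the control 12 h array 4 rose from 12 to 24 h. Calls over all genes moved as well. Between 24 and 2 h, 2302 genes were higher and 529 lower as deposited. Cyclic loess gave 1451 and 958, quantile scaling 1176 and 887. Over times these scalings gave 3843 and 3727 genes, against 5064 as deposited, while the member count did not fall. Without the control 24 h array, all-gene calls over times dropped too. All-gene higher calls between 24 and 2 h dropped without that array or the quercetin 2 h array. Both 12 h arrays belong to the class with the low spike-in mean (3 arrays low, 5 high). Only at 2 h do the 2 arrays of a time differ in class, so the class term is set by the 2 h pair alone. For 24 against 2 h the block thus amounts to leaving out the control 2 h array, and its 12 to 24 h values rest on that pair. With this class as a block, MTHFD2 and SLC38A2 of the 8 members that rose from 12 to 24 h were called again, CEBPG and VLDLR entered and 0 fell, while between 24 and 2 h 7 of the 8 higher calls were made again, all but ALDH18A1.

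**Figure D1:**
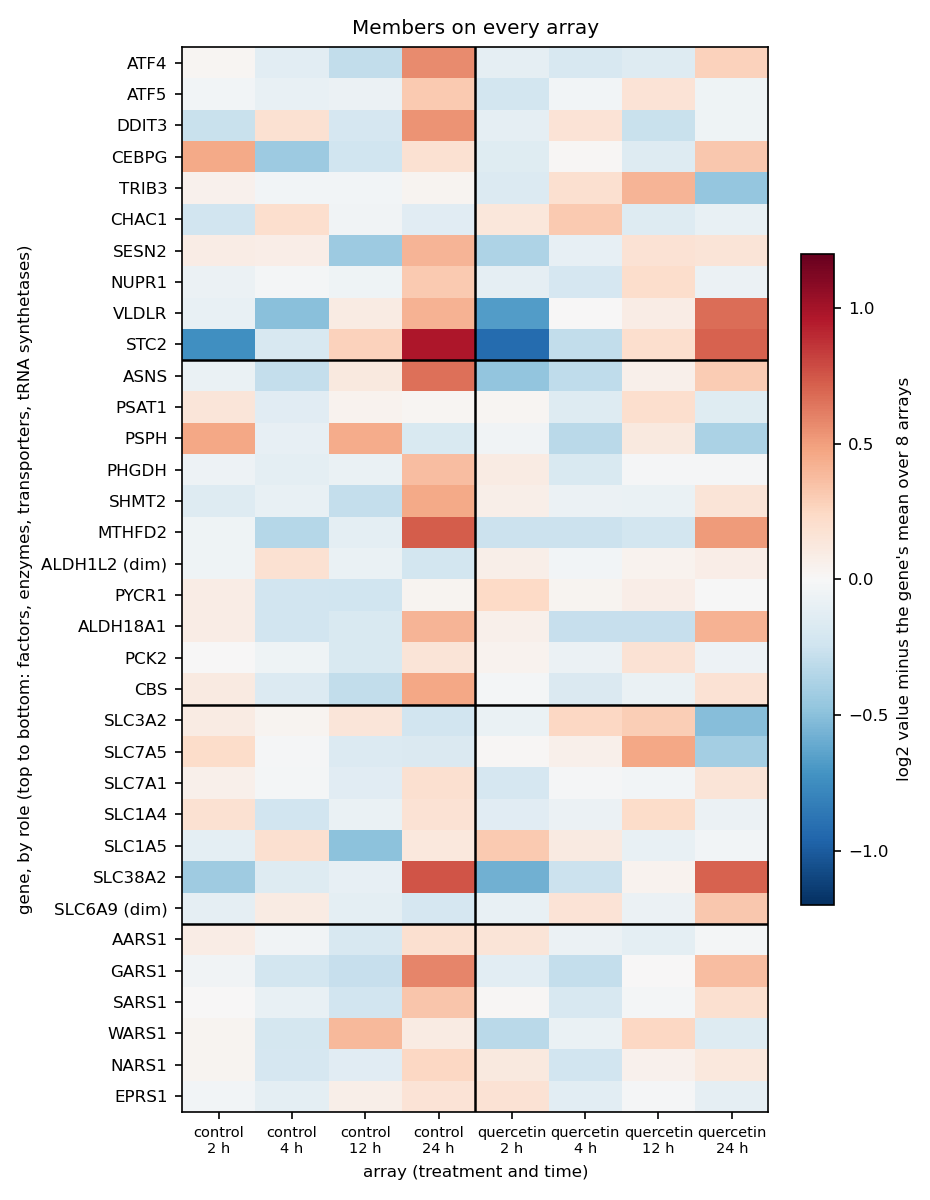
Log2 value of each of the 34 measured members on each of the 8 arrays, minus the gene's own mean over the 8 arrays, with rows ordered by role and the 2 members below the filter marked as dim. The control array at 24 h is the reddest column, STC2 and SLC38A2 run from blue at 2 h to red at 24 h in both arms, and PSPH runs the other way with a second high array at 12 h.

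ATF4 itself, the transcription factor of the group, read 12.63 on the control and 12.50 on the quercetin array of 2 h, then 12.48 and 12.42 (4 h), 12.31 and 12.45 (12 h) and 13.18 and 12.88 (24 h). Both 24 h arrays stood above all 6 earlier ones, which lay between 12.31 and 12.63. ATF4 was 0.47 ± 0.12 (SE) higher on the log2 scale at 24 than at 2 h, 1.38-fold (adjusted p = 0.00936), and 0.65 ± 0.12 higher than at 12 h (adjusted p = 0.000803; 0.51, adjusted p = 0.0744, without the control 24 h array, and 0.71, adjusted p = 0.0716, with the spike-in class as a block). After cyclic loess and quantile normalization the 12 to 24 h rise was 0.32 and 0.29 and still passed (adjusted p = 0.0261 and 0.0433. The 24 against 2 h call was lost without the quercetin 2 h array (0.44, adjusted p = 0.11), without the control 24 h array (0.33, adjusted p = 0.257) and after cyclic loess scaling (0.25, adjusted p = 0.0664), and passed at 0.29 after quantile normalization.

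STC2, which encodes the secreted glycoprotein stanniocalcin 2, had the largest change from 2 to 24 h of any tested member. Its values were 8.996 and 8.82 (2 h, control then quercetin), 9.54 and 9.44 (4 h), 10.01 and 9.94 (12 h) and 10.70 and 10.45 (24 h). The 2 arrays of each time lay above those of the time before. From 2 to 24 h STC2 rose by 1.67 ± 0.17, 3.18-fold (adjusted p = 1.53e-06), and the call held in each of 16 alternatives, where the change ran from 1.22 to 1.74. Its other probe set above the filter rose by 0.77.

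VLDLR, the very low density lipoprotein receptor and a known ATF4 target, was less regular. It read 7.71 and 7.12 (2 h), 7.29 and 7.80 (4 h), 7.89 and 7.89 (12 h) and 8.21 and 8.46 (24 h) (control, then quercetin). The 24 h arrays were the highest of the 8, but the arms differed by more than 0.5 in opposite directions at 2 and 4 h. The rise from 2 to 24 h was 0.92 ± 0.22, 1.89-fold (adjusted p = 0.00504), and it was 0.50 (adjusted p = 0.253) without the quercetin 2 h array and 0.78 (adjusted p = 0.0736) without the quercetin 24 h array.

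**Figure D2:**
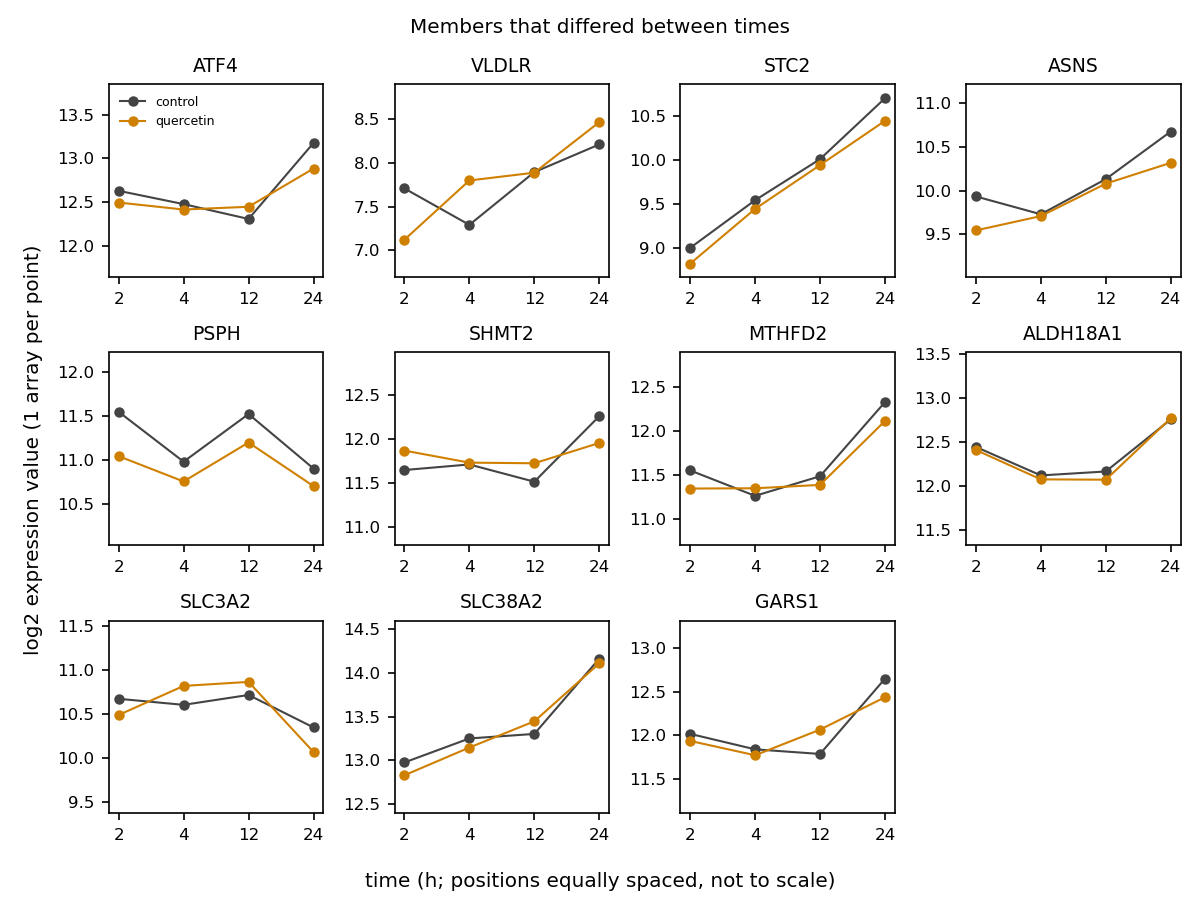
Log2 values of the 11 members that differed between times, control in grey and quercetin in orange, 1 array per point, with times at equal spacing on the x axis. STC2 and SLC38A2 climb at every step in both arms, ATF4, MTHFD2, ALDH18A1 and GARS1 rise between 12 and 24 h, and PSPH and SLC3A2 end at their lowest values.

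The remaining 7 regulators and stress factors did not pass the test over times. DDIT3, the factor CHOP that acts in stress-induced cell death, differed by 0.43 ± 0.19 between 24 and 2 h (adjusted p = 0.123), with 10.10 on the control and 9.50 on the quercetin array at 24 h. Without the quercetin 24 h array its difference was 0.74 and passed (adjusted p = 0.0483), and without the control 24 h array it was 0.12 (adjusted p = 0.821). SESN2, a leucine sensor and regulator of mTORC1, gave 0.42 ± 0.21 (adjusted p = 0.163), ATF5, a factor related to ATF4, 0.26 ± 0.19, and NUPR1, a small chromatin-associated stress protein, 0.21 ± 0.20. CEBPG, a C/EBP partner of ATF4, gave 0.10 ± 0.21, with -0.27 in control and 0.46 with quercetin. Its other probe set above the filter gave 0.48, with 0.47 and 0.49 in the same order. The other SESN2 probe set above the filter gave 0.74, and the mean of the SESN2 probe sets passed (0.58, adjusted p = 0.0438). Further probe sets of ATF5 above the filter gave -0.19 and 0.15.

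A pair of markers that are often read as signs of an active ATF4 response gave small differences between 24 and 2 h as deposited. TRIB3, a pseudokinase that restrains ATF4 and AKT signalling, differed by -0.16 ± 0.17 between 24 and 2 h (adjusted p = 0.552), and CHAC1, an enzyme that degrades glutathione, differed by -0.06 ± 0.19 (adjusted p = 0.854). From 12 to 24 h TRIB3 differed by -0.40 (adjusted p = 0.0882), and it was called lower there after cyclic loess (-0.72, adjusted p = 0.00396), after quantile normalization (-0.80, adjusted p = 0.00181) and without the control 12 h or the control 24 h array (-0.70 and -0.72, adjusted p = 0.0067 and 0.0365). Without the quercetin 12 h or the quercetin 24 h array it was -0.10 and -0.08. NUPR1 had the smallest range of the regulators, with 8.89 and 8.85 (2 h), 8.93 and 8.76 (4 h), 8.90 and 9.17 (12 h) and 9.28 and 8.89 (24 h) (control, then quercetin), so its 2 and 24 h arrays overlapped. A test that did not pass does not show that these 7 genes stayed level.

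Among the synthesis enzymes, ASNS, asparagine synthetase, read 9.93 and 9.55 (2 h), 9.73 and 9.71 (4 h), 10.13 and 10.08 (12 h) and 10.67 and 10.32 (24 h) (control, then quercetin). All 4 arrays of 12 and 24 h lay above all 4 of 2 and 4 h. The rise from 2 to 24 h was 0.76 ± 0.17, 1.69-fold (adjusted p = 0.00359), 0.63 (adjusted p = 0.0697) without the quercetin 2 h array and 0.65 (adjusted p = 0.0912) without the control 24 h array. After quantile normalization it was 0.47 and passed. ASNS also had the widest range of the 11 measured enzymes, 1.13 over the 8 arrays.

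MTHFD2, a mitochondrial enzyme of folate metabolism, read 11.55 and 11.35 (2 h), 11.26 and 11.35 (4 h), 11.49 and 11.39 (12 h) and 12.33 and 12.12 (24 h) (control, then quercetin). Only the 24 h arrays of these 8 stood apart. MTHFD2 rose by 0.78 ± 0.14 from 2 to 24 h, 1.71-fold (adjusted p = 0.000457), and by 0.79 ± 0.14 from 12 to 24 h. That later rise was 0.48 after cyclic loess and 0.44 after quantile normalization (adjusted p = 0.00957 and 0.016), and did not pass for the mean of its probe sets (0.49, adjusted p = 0.0635). The 24 against 2 h call held in each of 16 alternatives, with values from 0.53 to 0.85.

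ALDH18A1, which makes the precursor of proline and ornithine, gave 12.44 and 12.41 (2 h), 12.12 and 12.07 (4 h), 12.16 and 12.07 (12 h) and 12.76 and 12.77 (24 h) (control, then quercetin). The 4 and 12 h arrays lay below the others, and the arms differed by less than 0.1 at every time. The 12 to 24 h rise was 0.65 ± 0.12, 1.57-fold (adjusted p = 0.000648; 0.27, adjusted p = 0.0835, after quantile normalization and 0.64, adjusted p = 0.0859, with the spike-in class as a block), while 24 against 2 h, 0.34 ± 0.12 (adjusted p = 0.0464), passed in 5 of 16 alternatives and was 0.12 (adjusted p = 0.454) after cyclic loess. It was also lost without any 1 of 6 arrays, those of 2, 4 and 24 h, where it ranged from 0.30 to 0.37.

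SHMT2, the mitochondrial serine hydroxymethyltransferase, was 11.65 and 11.87 (2 h), 11.71 and 11.73 (4 h), 11.52 and 11.73 (12 h) and 12.26 and 11.96 (24 h) (control, then quercetin). Its 24 h values were the highest of the 8. From 12 to 24 h it rose by 0.49 ± 0.14 (adjusted p = 0.0184), which was 0.37 (adjusted p = 0.15) without the control 12 h array and 0.26 (adjusted p = 0.448) without the control 24 h array. SHMT2 did not pass either after cyclic loess (0.17, adjusted p = 0.353), after quantile normalization (0.13, adjusted p = 0.488), with the spike-in class as a block (0.24, adjusted p = 0.615), and with the mean of its probe sets or its gene-specific probe set (0.34 and 0.45, adjusted p = 0.139 and 0.115). For SHMT2, 24 against 2 h was 0.35 ± 0.14 (adjusted p = 0.092). That difference passed without either 12 h array (0.35, adjusted p = 0.0365 and 0.0368) and without the quercetin 24 h array (0.58, adjusted p = 0.0483). CBS, cystathionine beta-synthase, which was not called over times, rose by 0.51 ± 0.17 from 12 to 24 h (adjusted p = 0.035) and differed by 0.28 from 2 to 24 h, where its gene-specific probe set gave -0.05. The 12 to 24 h call of CBS was lost without the control 12 h array (0.33, adjusted p = 0.385), the control 24 h array (0.35, adjusted p = 0.396), the quercetin 24 h array (0.67, adjusted p = 0.054) or either 4 h array (0.51, adjusted p = 0.0564 and 0.0566). It was also lost after cyclic loess (0.26, adjusted p = 0.189), after quantile normalization (0.24, adjusted p = 0.269), with the mean of its probe sets (0.31, adjusted p = 0.211) and with the class as a block (0.61, adjusted p = 0.237), and the gene-specific probe set gave -0.0145 (adjusted p = 0.968).

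PSPH, phosphoserine phosphatase, the last step of serine synthesis, ran the other way. Its values were 11.55 and 11.04 (2 h), 10.98 and 10.75 (4 h), 11.52 and 11.20 (12 h) and 10.90 and 10.70 (24 h) (control, then quercetin). The 3 highest arrays, control at 2 h and both at 12 h, were the 3 with the low spike-in mean, and a second probe set was also highest there, at 9.81, 9.82 and 9.64 against 8.33 to 8.92 on the other 5. PSPH was 0.49 ± 0.15 lower at 24 than at 2 h (-0.49, 1.41-fold, adjusted p = 0.0211), rose by 0.49 ± 0.15 from 4 to 12 h (adjusted p = 0.0457) and fell by 0.56 from 12 to 24 h (adjusted p = 0.00973; -0.55, adjusted p = 0.0522, without the control 12 h array and -0.48, adjusted p = 0.164, without the control 24 h array). After quantile normalization the 2 to 24 h and 12 to 24 h differences were larger, -0.76 and -0.91. With the spike-in class as a block, 24 against 2 h was -0.37 and no longer passed (adjusted p = 0.149), and PSPH was called in none of these comparisons. For 24 against 2 h this is not a separate result from leaving out the control 2 h array, which also gave -0.37. Other single arrays ended the 24 against 2 h call too. Without the control 24 h array it was -0.42 and without the quercetin 24 h array -0.57.

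The enzymes before PSPH in the serine pathway did not pass. PHGDH, which starts it, differed by 0.16 ± 0.16 from 2 to 24 h (adjusted p = 0.532), and PSAT1, the aminotransferase between them, by -0.14 ± 0.12 (adjusted p = 0.434). PYCR1, which makes proline, gave -0.15 ± 0.14 (adjusted p = 0.466). PCK2, the mitochondrial phosphoenolpyruvate carboxykinase, had the smallest range of the enzymes: 11.36 and 11.40 (2 h), 11.31 and 11.29 (4 h), 11.18 and 11.53 (12 h) and 11.52 and 11.30 (24 h) (control, then quercetin). No time of PCK2 stood apart from the others, and its 24 against 2 h difference was 0.02 ± 0.15. ALDH1L2, a mitochondrial folate enzyme below the filter, ranged from 6.34 to 6.74 and was not tested.

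Among the transporters, SLC38A2 (SNAT2), which takes up small neutral amino acids such as glutamine and alanine with sodium, had the smallest adjusted p of all members. It read 12.98 and 12.83 (2 h), 13.25 and 13.15 (4 h), 13.30 and 13.45 (12 h) and 14.16 and 14.11 (24 h) (control, then quercetin). The arms stayed within 0.15 of each other at every time. The rise from 2 to 24 h was 1.23 ± 0.10, 2.35-fold (adjusted p = 9.76e-08), and that from 12 to 24 h was 0.76 ± 0.10 (adjusted p = 4.34e-05). The later rise was 0.41 after cyclic loess and 0.48 after quantile normalization (adjusted p = 0.00258 and 0.000496), and 1.16 for the mean of its probe sets. Every one of 15 alternatives kept the 24 against 2 h call, with values from 1.04 to 1.69, and the 2 other probe sets, which were also above the filter, rose by 1.90 and 1.94.

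SLC3A2, the heavy chain that brings SLC7A5 and related carriers to the cell surface, went down late. Its values were 10.68 and 10.49 (2 h), 10.61 and 10.82 (4 h), 10.72 and 10.87 (12 h) and 10.35 and 10.07 (24 h) (control, then quercetin). Both 24 h arrays were below all 6 others. SLC3A2 fell by 0.58 from 12 to 24 h (SE 0.17, 1.5-fold, adjusted p = 0.0152), a call lost with the spike-in class as a block (-0.37, adjusted p = 0.478), without the quercetin 12 h array (-0.47, adjusted p = 0.0952) and without the quercetin 24 h array (-0.41, adjusted p = 0.206). From 2 to 24 h the difference was -0.37 ± 0.17 (adjusted p = 0.12).

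Its partner SLC7A5 (LAT1), the light chain that carries large neutral amino acids, differed by -0.41 ± 0.16 from 2 to 24 h (adjusted p = 0.0753) and by -0.44 ± 0.16 from 12 to 24 h (adjusted p = 0.0509). From 12 to 24 h control read 12.02 and 12.00, and quercetin 12.64 and 11.77. Without the quercetin 12 h or 24 h array the 12 to 24 h difference was -0.07 and -0.24. It was -0.81 and -0.64 without the control 12 h or 24 h array. The 2 to 24 h difference passed without either 12 h array (-0.41, adjusted p = 0.00549 and 0.00611). Under both cyclic loess and quantile scaling, SLC3A2 and SLC7A5 were both called lower at 24 than at 2 h, together with PSPH, PSAT1 and PYCR1. The other carriers gave small differences: SLC1A4 and SLC1A5, which exchange neutral amino acids, 0.03 ± 0.17 and -0.05 ± 0.17. SLC7A1, the arginine and lysine carrier, had the smallest range of the transporters, with 10.90 and 10.64 (2 h), 10.82 and 10.82 (4 h), 10.70 and 10.80 (12 h) and 11.03 and 10.99 (24 h) (control, then quercetin). Its 24 h arrays were the 2 highest, and the 24 against 2 h difference was 0.24 ± 0.15 (adjusted p = 0.289). SLC6A9, a glycine transporter below the filter, ranged from 7.19 to 7.72.

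Of the tRNA synthetases, the enzymes that load amino acids onto tRNAs, GARS1 alone was called among the 6 tested. It read 12.02 and 11.94 (2 h), 11.84 and 11.77 (4 h), 11.79 and 12.07 (12 h) and 12.65 and 12.43 (24 h) (control, then quercetin). The 24 h arrays lay above all others. GARS1 rose by 0.56 ± 0.14 from 2 to 24 h, 1.48-fold (adjusted p = 0.00511), with 0.52 (adjusted p = 0.0714) without the quercetin 2 h array and 0.44 (adjusted p = 0.163) without the control 24 h array. It was 0.34 after cyclic loess and after quantile normalization and passed under both.

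SARS1, NARS1, AARS1 and EPRS1 differed from 2 to 24 h by 0.26 ± 0.15, 0.11 ± 0.13, -0.04 ± 0.15 and -0.04 ± 0.16, and WARS1, which was highest at 12 h, by 0.12 ± 0.18. EPRS1, which joins glutamate and proline to their tRNAs, had the smallest range, with 10.74 and 10.95 (2 h), 10.66 and 10.65 (4 h), 10.84 and 10.76 (12 h) and 10.94 and 10.67 (24 h; control, then quercetin). Its 4 h arrays were the 2 lowest, and its 2 and 24 h arrays overlapped. That GARS1 was called and its neighbours were not is not a test of a difference between them.

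Set side by side, the 24 against 2 h medians were 0.34 for regulators and stress factors, 0.22 for synthesis enzymes, 0.12 for synthetases and -0.01 for transporters. They were 0.19 for the 32 members and 0.09 for all genes tested (0.19 for the 8095 brighter genes above the 75th percentile). Scaling moved all of them: the median of all genes was -0.02 after cyclic loess and -0.03 after quantile normalization, and relative to it the 32 members stood at 0.09 as deposited, 0.01 after cyclic loess and -0.002 after quantile normalization. The regulators stayed above the median of all genes under each scaling, by 0.16 to 0.24, and the transporters below it, at -0.24 to -0.10, whereas enzymes (0.13 as deposited, -0.02 after quantile normalization) and synthetases (0.02 as deposited, -0.07 after cyclic loess) changed side. The arms differed as well, with 1 array per time in each. As deposited, the 24 against 2 h medians (control, then quercetin) were 0.37 and 0.28 for regulators and 0.34 and -0.01 for enzymes. They were 0.21 and 0.09 for synthetases, 0.07 and -0.14 for transporters, 0.28 and 0.08 for the 32 members and 0.13 and 0.08 for all genes. Probe sets of the same gene did not always run together either: of 15 members with several probe sets above the filter, 7 (ATF5, CBS, PSAT1, SLC1A4, SLC7A1, TRIB3 and WARS1) held both signs from 2 to 24 h.

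**Figure D3:**
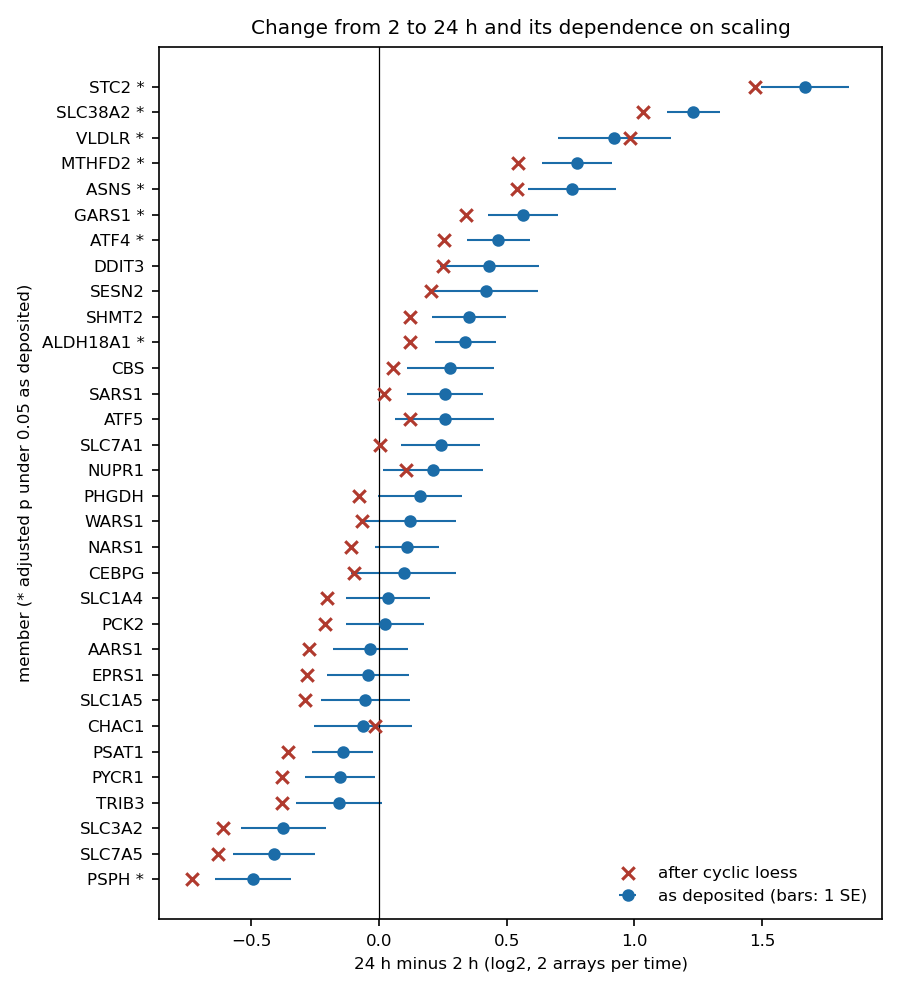
Difference between 24 and 2 h on the log2 scale for the 32 tested members, 2 arrays per time, as deposited (circles with 1 SE) and after cyclic loess scaling (crosses), with called members starred. STC2, SLC38A2, VLDLR, MTHFD2, ASNS and GARS1 lie right of 0 under both scalings, while most crosses lie left of their circles.

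A second comparison asked whether quercetin shifted these genes. Over the 4 times, 0 members were called for quercetin by limma (0% of all genes, 0 of 13298), and the smallest adjusted p of a member was 0.844. At an unadjusted p under 0.05 there was 1 member, PSPH, among 785 genes. PSPH was lower with quercetin at every time, with differences of -0.51, -0.23, -0.32 and -0.20 in order of time and a mean of -0.31 ± 0.11. ASNS (-0.20 ± 0.12), PYCR1 (0.17 ± 0.10), WARS1 (-0.16 ± 0.13) and STC2 (-0.15 ± 0.12) had the next largest means. The test that set the late quercetin differences (12 and 24 h) against the early ones (2 and 4 h) also called 0 members, where 0.368% of all genes were called. SLC7A5 was called, at 0.69, without the control 24 h array, the quercetin 24 h array or both. Each of these settings leaves the 12 h pair, 1 array against 1 array, as the only late difference, so they give the same estimate.

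At single times the differences went in different directions. Their medians over the 32 members were, in order of time, -0.13, -0.02, 0.15 and -0.22, against -0.06, -0.02, 0.05 and -0.10 over all genes. The members' median at 2 h was 0.01 after cyclic loess, -0.02 after quantile normalization and -0.20 after median centring. Only PSPH, STC2 and ASNS kept 1 sign at all 4 times, each lower with quercetin. That is 9.38% of members, where 13.8% of all genes kept a sign.

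Few members passed 0.5 in size, a 1.41-fold difference. At 2 h these were CEBPG (-0.59), VLDLR (-0.59) and PSPH (-0.51), and 0 were higher, where 8.89% of all genes were lower and 4.81% higher by as much. VLDLR turned to 0.51 higher at 4 h, the only member past the size there (1.5% of all genes higher, 1.45% lower). At 12 h SLC7A5 (0.62) and SESN2 (0.60) were higher and 0 lower (4.19% and 1.2% of all genes).

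At 24 h DDIT3 was the only one, at -0.59 (5.46% of all genes lower and 3.19% higher). At that time 28 of the 32 members were lower with quercetin, 87.5%, where 66.2% of all genes were. All 6 transporters (-0.04 to -0.28), all 6 synthetases (-0.12 to -0.27), 9 of 10 enzymes and 7 of 10 regulators were on the lower side, and ATF4 was at -0.29, TRIB3 at -0.49, NUPR1 at -0.39, PHGDH at -0.39 and ATF5 at -0.36. The 4 on the higher side were VLDLR (0.25), CEBPG (0.14), CHAC1 (0.04) and ALDH18A1 (0.01). Other probe sets above the filter gave -0.18 for CEBPG and -0.15 for ALDH18A1. In turn, further probe sets of SHMT2, SLC7A1, EPRS1, CBS and SLC38A2 were higher, at 0.22, 0.21, 0.14, 0.11 and 0.01.

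This is 1 array against 1 array, and the members are not independent points. Members had a higher signal than most genes, with a median mean of 10.94 against 9.16 for all genes tested. Among the 4163 genes with a mean of at least 10, 75.5% were lower with quercetin at 24 h (median -0.11), beside 23 of 24 members in that range. Among the 1987 genes with a mean of at least 11, 70.9% were lower (median -0.08), beside 15 of 16 members. After cyclic loess 25 of 32 members were lower at 24 h (median -0.11, all genes -0.001), after quantile normalization 26 and after median centring 29. The 12 h pair pointed the other way as deposited, with 22 of 32 members higher (median 0.15), all 6 transporters among them, beside 7881 of 13298 genes. The count of 22 was 18 after cyclic loess and 16 after quantile normalization, and all-gene medians changed from 0.05 to -0.02 under both. Among genes with a mean of at least 10, 29.3% were lower at 12 h, beside 5 of 24 members. Among those of at least 11, 21.9% were lower, beside 3 of 16 members.

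**Figure D4:**
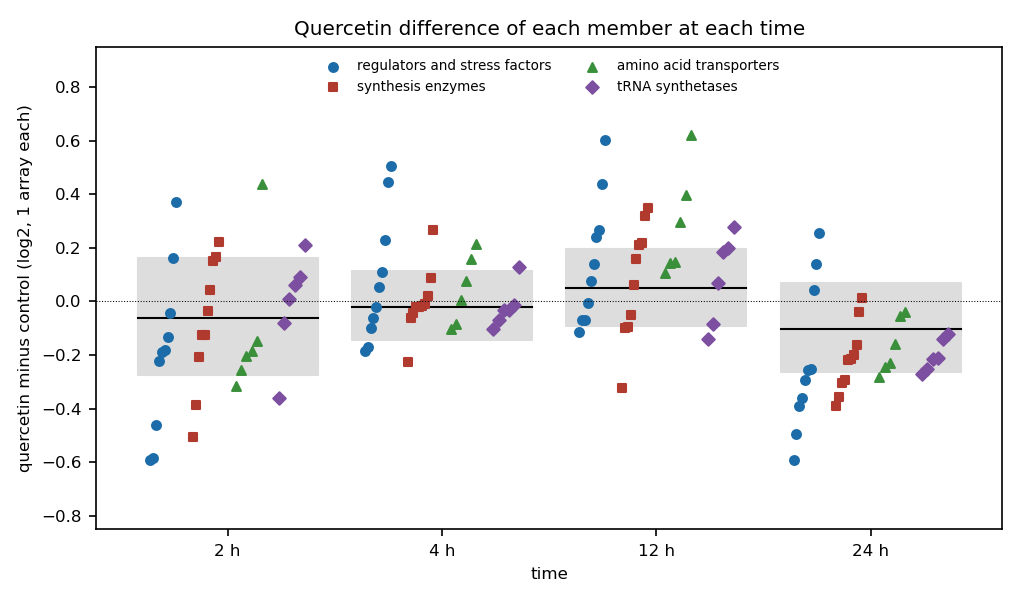
Quercetin minus control on the log2 scale for each of the 32 tested members at each time, 1 array against 1 array, with symbols by role. The grey box runs from the lower to the upper quartile of all 13298 genes and its line is their median. At 24 h 28 members lie below 0, as do 8800 of all genes. At 12 h 22 members lie above it, as do 7881 of all genes.

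Genes that act above or beside ATF4 were read from separate lists that hold no members. Like the members, these lists were chosen with earlier results of these data known. The calls of these lists were not repeated without single arrays. Among eIF2 kinases, the phosphatase subunits and eIF2B, 4 of 13 tested changed over times (38.1% of all genes), 3 were higher at 24 than at 2 h (17.3%) and 0 lower (3.98%). EIF2AK3 (PERK), the kinase that senses unfolded protein, rose by 1.35 ± 0.21 and PPP1R15B, a subunit that directs eIF2 dephosphorylation, by 1.25 ± 0.21, while EIF2AK4 (GCN2), which senses empty tRNAs, rose by 0.45 ± 0.15 (adjusted p = 0.0385) after a call as lower from 2 to 4 h (-0.78, adjusted p = 0.022). EIF2B2 gave 0.45 ± 0.17 (adjusted p = 0.0587). PPP1R15A, the stress-induced counterpart of PPP1R15B and itself an ATF4-linked gene, differed by 0.08 ± 0.19. At 24 h 12 of the 13 were lower with quercetin, where 66.2% of all genes were.

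Of 12 tested further genes that literature links to ATF4, 7 changed over times (38.1% of all genes), and 4 were higher at 24 than at 2 h (17.3%) with 0 lower (3.98%). DDIT4, an inhibitor of mTORC1, rose by 1.25 ± 0.20 and GOT1, the cytosolic aspartate aminotransferase, by 1.04 ± 0.16. CEBPB, a C/EBP factor, rose by 0.44, ATF3 by 0.72 ± 0.25 (adjusted p = 0.0403), and SLC7A11, the cystine carrier, gave 0.62 ± 0.26 (adjusted p = 0.0929). At 24 h 10 of the 12 were lower with quercetin (66.2% of all genes), 4 of them by at least 0.5 (5.46% of all genes): ATF3 (-0.94), JDP2 (-0.85), SLC7A11 (-0.65) and DDIT4 (-0.63). Other times differed, again 1 array against 1 array. At 12 h 4 of the 12 were lower (40.7% of all genes), and GDF15 (0.72) and CEBPB (0.60) were higher by at least 0.5 (4.19% of all genes). Past that size were also SLC7A11 (0.99) and DDIT4 (-0.71) at 4 h, and ADM2 (0.54) and ATF3 (-0.62) at 2 h.

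The synthetases that are no members were mixed. Of 11 other cytosolic ones 5 changed over times, where 38.1% of all genes did, with TARS1 (0.84 ± 0.17), CARS1 (0.70 ± 0.17) and KARS1 (0.43 ± 0.12) higher and LARS1 (-0.75 ± 0.17) lower at 24 than at 2 h. Of 15 mitochondrial ones 5 changed (again 38.1% of all genes), with NARS2 (0.85 ± 0.16), LARS2 (0.69 ± 0.19) and IARS2 (0.47 ± 0.15) higher, as was WARS2 (0.59), which was not called over times, and MARS2 (-0.57 ± 0.20) lower. Among 12 chaperone and degradation genes of the endoplasmic reticulum, which other branches of the unfolded protein response control at least in part, 5 changed (38.1% of all genes). They were led by DNAJB9 (1.29 ± 0.19), HERPUD1 (1.22 ± 0.16), SEL1L (0.74 ± 0.16) and DNAJC3 (0.59 ± 0.15), while HSPA5, the main chaperone, differed by -0.02 ± 0.10.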

How the data were processed

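The authors deposited log2 expression values of 54675 probe sets on 8 arrays, which the submitters' processing notes credit to RMA. The version and settings of RMA were not given. In the platform annotation 41091 probe sets had 1 symbol, 1801 had several and 11721 were not listed; 41037 symbols were updated through Entrez identifiers.

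Limma 3.58.1 (R 4.3.3) was fitted with time and treatment as terms (3 residual degrees of freedom), moderated with a trend, with Benjamini-Hochberg adjustment over 13298 genes at 0.05. The prior had 18.1 degrees of freedom, so each SE rested more on the trend over all genes than on the gene's own scatter. A second fit added treatment by late time (2 residual degrees of freedom). The code was tested on simulated data. The members, roles, lists and tests were chosen with earlier results of these data known. All 35 members were named; values per array were given for called members and for the widest and narrowest range in each role, and of other lists up to 4 of the largest called genes; other genes of those lists were named after their values were seen. Genes with a mean of at least 10 were set apart after seeing the data. Alternatives varied the filter, probe sets, scaling, fit and arrays. The number of arrays limits the precision.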

Additional observations from a re-analysis of the deposited data

How the results depend on the processing

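With 1 array per treatment and time, the spread in the main fits is that of the quercetin difference over times, moderated over all genes. Signal over background limits dim genes, and scaling limits small shifts. The cause of the changes below was not tested, except that probe sets specific to 1 gene left only 20 members to test. Under several of these settings the calls over all genes moved too, as given in the Results. STC2 and MTHFD2 kept their 24 against 2 h calls in all 16 alternatives run for them, and SLC38A2 in all 15.

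Of 11 members called over times, 5 were called with gene-specific probe sets and 5 to 16 when 1 array was left out. Between 24 and 2 h, 8 higher became 4 (gene-specific) and 3 to 9 (1 array left out). There 1 lower became 0 (mean of probe sets, median centring, no treatment term, array class as a block, threshold 0.01), 5 (cyclic loess and quantile normalization) and 0 to 2 (1 array left out). From 12 to 24 h, 8 higher became 5 (mean of probe sets, threshold 0.01), 4 (gene-specific, cyclic loess, array class) and 3 (quantile), or 3 to 10 with 1 array left out; 2 lower became 1 (gene-specific, threshold 0.01), 6 (cyclic loess, quantile) and 0 (array class), or 1 to 3. From 4 to 12 h, 1 higher became 0 (no filter, mean of probe sets, cyclic loess, quantile, no trend, no treatment term, array class, threshold 0.01) and 2 (median centring), or 0 to 3, and 0 lower became 1 (cyclic loess, quantile). From 2 to 4 h, 0 higher became 1 (cyclic loess, quantile), or 0 to 2, and 0 lower 0 to 1. Calls for quercetin were 0 in each alternative, and late against early 0 to 1 with arrays left out.

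The 24 against 2 h median of regulators, 0.34, was 0.26 (gene-specific), 0.16 (cyclic loess), 0.13 (quantile), 0.42 (array class) and 0.15 to 0.50 with 1 array left out. The other medians were -0.25 and -0.28 for transporters (cyclic loess, quantile; -0.18 to 0.17 with 1 array left out), -0.088 and -0.090 for synthetases (cyclic loess, quantile) and -0.050 for enzymes (quantile).

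Members below the threshold that changed sign between 24 and 2 h, with cyclic loess and quantile values, were CEBPG (-0.10, -0.14), PHGDH (-0.078, -0.11), PCK2 (-0.21, -0.23), SLC1A4 (-0.20, -0.23), WARS1 (-0.066, -0.080) and NARS1 (-0.11, -0.10), and under quantile normalization SLC7A1 (-0.038) and SARS1 (-0.0056). With the mean of probe sets PSAT1 gave 0.019, SLC1A4 -0.053 and EPRS1 0.0064, with gene-specific probe sets CBS -0.051 and SLC1A4 -0.51, and with median centring SLC1A5 0.00555, AARS1 0.024 and EPRS1 0.0165. With 1 array left out the ranges were -0.31 to 0.50 (CEBPG), -0.48 to 0.16 (TRIB3), -0.24 to 0.12 (CHAC1), -0.061 to 0.38 (PHGDH), -0.15 to 0.20 (PCK2), -0.16 to 0.23 (SLC1A4), -0.26 to 0.15 (SLC1A5), -0.16 to 0.089 (AARS1), -0.015 to 0.26 (WARS1) and -0.21 to 0.13 (EPRS1).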
